A study of Mus musculus with 11 samples.

Results

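The genes described here are 35 genes of the hypoxia response and of glycolysis, taken by name from a table of 55487 genes. Every name was found, and Aldoa is listed under 2 identifiers, of which the one with more counts was used. The RNA came from mouse MC38, a colon carcinoma cell line, and from cells sorted out of MC38 tumours, read by bulk RNA-seq as 11 libraries. MC38 cells expressed a short hairpin RNA against Fgf21, a secreted metabolic hormone (shFgf21), or a control hairpin (shNC, whose genotype is labelled WT), to ask how tumour-made FGF21 acts on T cells. There were 2 shFgf21 sorted libraries against 3 shNC sorted libraries, and 3 shFgf21 tumour libraries against 3 shNC tumour libraries. The labels give no mouse strain, sex or age, no sorting markers and no word on whether either line is 1 clone. Each sorted library has a title made of 2 or 3 joined numbers, with no statement of what was pooled. Replicate 2 of the shFgf21 sorted libraries was grouped by its title, since its genotype field reads FGF22.

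Cells short of oxygen stabilise the transcription factor HIF-1, whose alpha subunit is encoded by Hif1a and is otherwise marked for destruction by prolyl hydroxylases such as those from Egln1 and Egln3. HIF-1 binds a short DNA word in the promoters and enhancers of its targets, among them a blood vessel growth factor, a pH-regulating enzyme and most of the enzymes that turn glucose into lactate. Tumour cells, activated T cells and inflammatory macrophages are all known to run glycolysis at a high rate, and they use partly different members of each enzyme family.

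The libraries held between 14944013 and 19099350 counts, so a gene with 3 counts stood at 0.157 to 0.201 CPM, counts scaled to 1000000 per library. Fgf21 itself had 0 counts in every library except 2 counts in shNC tumour replicate 2 and 1 count in shNC tumour replicate 6, so the knockdown could not be checked from these counts. The sorted libraries are labelled as T cells, yet their summed level of 10 macrophage and monocyte markers was 17300 to 18800 CPM in shFgf21 and 11100 to 13500 CPM in shNC, against 323 to 392 CPM and 283 to 592 CPM for 10 T cell markers. Summed levels of 8 fibroblast and mesenchymal markers were 12400 to 14500 CPM and 12200 to 13500 CPM in the same groups. These sums were also high in the tumour libraries, at 14500 to 16200 CPM in shFgf21 and 16300 to 18100 CPM in shNC. In the tumour libraries the leukocyte gene Ptprc lay between 0 and 0.405 CPM in shFgf21 and between 0.241 and 0.975 CPM in shNC, and Cd3e was at 0 in both. The labels are therefore read below only as sorted and tumour libraries, and the sources used here do not say whether the tumour RNA came from grown tumours or from culture. In such bulk RNA, fewer cells of a type and less RNA per cell cannot be told apart. Separate animals are not stated for the libraries of a group, so each p-value reflects a spread between libraries that may be technical.

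The promoters shown first are those of 6 genes that stood among the 8 smallest p-values in a knockdown comparison, 4 of them (Adm, Bnip3, Ero1l and Gpi1) in both. RefSeq (GRCm38.p6) windows of 300 bases, from 250 bases before to 50 after the annotated start, were matched for 33 of the 35 genes, Ero1l under its current symbol Ero1a. No window was matched for Ndrg1 and Slc2a3. Each window was searched on both strands for ACGTG, the core of the HIF-binding word, and for its variant GCGTG. The palindrome CACGTG, the E-box of other factors, contains ACGTG on both strands. The windows are chr7:110627407-110627706 for Adm, on the plus strand, and chr4:43506776-43507075 for Car9, on the plus strand. Those of Bnip3 and Ero1l, both on the minus strand, are chr7:138909457-138909756 and chr14:45318523-45318822. Slc2a1 is at chr4:119108495-119108794, on the plus strand, and Gpi1 at chr7:34230287-34230586, on the minus strand. They are written from 5′ to 3′ on the gene's strand, with matches on either strand in capitals.
Adm: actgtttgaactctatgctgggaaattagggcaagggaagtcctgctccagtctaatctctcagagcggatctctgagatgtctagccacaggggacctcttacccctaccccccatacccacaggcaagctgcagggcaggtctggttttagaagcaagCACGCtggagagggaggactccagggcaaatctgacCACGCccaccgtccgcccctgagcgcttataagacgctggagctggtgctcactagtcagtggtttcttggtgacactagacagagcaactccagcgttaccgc
Car9: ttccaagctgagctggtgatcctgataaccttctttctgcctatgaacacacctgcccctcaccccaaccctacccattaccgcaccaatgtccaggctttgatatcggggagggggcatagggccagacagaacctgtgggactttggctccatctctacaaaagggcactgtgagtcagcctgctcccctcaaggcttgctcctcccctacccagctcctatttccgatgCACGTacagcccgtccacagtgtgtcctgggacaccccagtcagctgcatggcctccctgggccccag
Bnip3: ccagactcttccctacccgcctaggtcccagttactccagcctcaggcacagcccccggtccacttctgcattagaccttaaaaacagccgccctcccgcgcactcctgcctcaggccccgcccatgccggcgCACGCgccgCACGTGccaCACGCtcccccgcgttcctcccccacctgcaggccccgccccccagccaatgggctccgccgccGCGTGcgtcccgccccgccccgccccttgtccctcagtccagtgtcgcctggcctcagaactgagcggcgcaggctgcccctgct
Ero1l: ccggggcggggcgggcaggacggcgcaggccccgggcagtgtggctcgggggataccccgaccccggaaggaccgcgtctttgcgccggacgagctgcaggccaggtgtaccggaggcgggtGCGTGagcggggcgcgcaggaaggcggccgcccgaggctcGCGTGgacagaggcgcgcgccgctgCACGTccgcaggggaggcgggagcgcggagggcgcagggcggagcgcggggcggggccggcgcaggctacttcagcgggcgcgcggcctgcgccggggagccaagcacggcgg
Slc2a1: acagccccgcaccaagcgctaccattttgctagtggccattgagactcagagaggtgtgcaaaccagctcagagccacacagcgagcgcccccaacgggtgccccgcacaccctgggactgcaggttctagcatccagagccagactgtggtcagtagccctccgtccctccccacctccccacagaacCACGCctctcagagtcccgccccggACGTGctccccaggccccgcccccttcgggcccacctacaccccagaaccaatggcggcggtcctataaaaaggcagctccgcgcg
Gpi1: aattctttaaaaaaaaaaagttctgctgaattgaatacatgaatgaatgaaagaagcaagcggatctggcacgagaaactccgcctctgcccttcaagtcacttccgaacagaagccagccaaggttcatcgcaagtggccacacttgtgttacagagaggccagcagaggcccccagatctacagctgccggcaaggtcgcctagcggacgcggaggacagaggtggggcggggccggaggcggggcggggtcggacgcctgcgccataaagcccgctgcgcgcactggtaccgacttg
Bnip3 holds an E-box form of the word among its matches, and Gpi1 holds no match. ACGTG occurred in 18 of the 33 windows (54.5%) against 19.6% of all 32851 promoter windows, GCGTG in 51.5% against 32.4%, and either word in 75.8% against 43.8%. Both words contain a CG step, and the windows of these genes had a median GC content of 62.3% against 52.7% over all windows, so the share of matches and the base composition moved together and their relation was not tested. A match describes letters in this window only and says nothing of binding.

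In the sorted libraries no member passed the threshold between shFgf21 and shNC. Of the 34 members tested (Car12, with 10 and 24 counts in the whole shFgf21 and shNC groups, was too low), 14 had log2 fold changes above 0 and 20 below 0, with a median of -0.04 against -0.01 over all 16454 genes tested. The smallest adjusted p, from edgeR's quasi-likelihood test with Benjamini-Hochberg adjustment over all genes, was 0.130. At an unadjusted p under 0.05 there were 3 members above and 7 below 0, against 11.2% of all genes in either direction, and 0.079% of all genes passed the adjusted threshold (0.0182% higher and 0.0608% lower). The 2 shFgf21 libraries lay wholly above the 3 shNC libraries for 4 members and wholly below them for 11, against 14.5% and 15% of all genes. DESeq2 called 5 members, Adm and Slc2a3 lower and Hk2, Aldoc and Ldhb higher in shFgf21, while limma voom called 0. Over all genes DESeq2 called 0.93% higher and 0.565% lower, and voom 0.0972% in either direction. Macrophage marker sums did not overlap between the shFgf21 and shNC sorted libraries, as given above. Neutrophil, natural killer, dendritic and epithelial sums were lower in shFgf21 without overlap, and the erythroid sum was higher. The lists were mixed for 2 of these, with 2 of 6 neutrophil and 2 of 5 dendritic markers tested above 0. Itgax held most of the dendritic sum, at 74.4 and 66.0 CPM in shFgf21 and 75.5, 88.9 and 96.1 CPM in shNC. Zbtb46, from the same list, was higher in shFgf21, at 8.80 and 9.08 CPM against 6.55, 3.73 and 5.31 CPM. The neutrophil sum was 104 to 107 CPM in shFgf21 and 113 to 196 CPM in shNC. Sums of T cell, B cell, endothelial and fibroblast markers overlapped, as did Ptprc. The part of all these markers in any of the values below was not tested.

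The 8 members listed here as HIF targets were Adm, Ero1l, Bnip3, Car9, Ndrg1, Ankrd37, Vegfa and Car12. Glycolytic enzymes, many of them also targets of HIF-1, were listed under their steps instead. Among these 8, Adm, which encodes the vasodilator peptide adrenomedullin, was at 5.80 and 5.10 CPM in the shFgf21 sorted libraries. In the shNC sorted libraries Adm was at 15.4, 10.8 and 18.8 CPM. Its log2 fold change was -1.46 ± 0.25 (SE; adjusted p = 0.130, edgeR). The groups did not overlap, and the lowest shNC library was at 10.8 CPM. Ero1l, the endoplasmic reticulum oxidase that passes electrons to oxygen during protein folding, was at 208 and 175 CPM in shFgf21, against 266, 238 and 313 CPM in shNC (-0.51 ± 0.14, adjusted p = 0.282, edgeR). Bnip3, a mitochondrial protein of mitophagy and cell death, was at 252 and 189 CPM in shFgf21, against 306, 257 and 327 CPM in shNC (-0.43 ± 0.15, adjusted p = 0.376, edgeR). Neither gene's groups overlapped, but shFgf21 replicate 1 came within a few CPM of shNC replicate 2 for Bnip3. All 7 tested genes of this list had log2 fold changes below 0, from -1.46 to -0.05, with a median of -0.43, and 5 of them did not overlap. Members listed elsewhere went both ways. Above 0 were 6 of 9 upper glycolysis genes, from hexokinase to triose phosphate isomerase, and 3 of 6 lower ones. Car9, the cell-surface carbonic anhydrase, was at -0.30 ± 0.15, Ndrg1, a stress-induced gene, at -0.26 ± 0.13, and Ankrd37, an ankyrin repeat protein, at -0.46 ± 0.24. Vegfa, the blood vessel growth factor, stood at -0.05 ± 0.13.

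**Figure D1:**
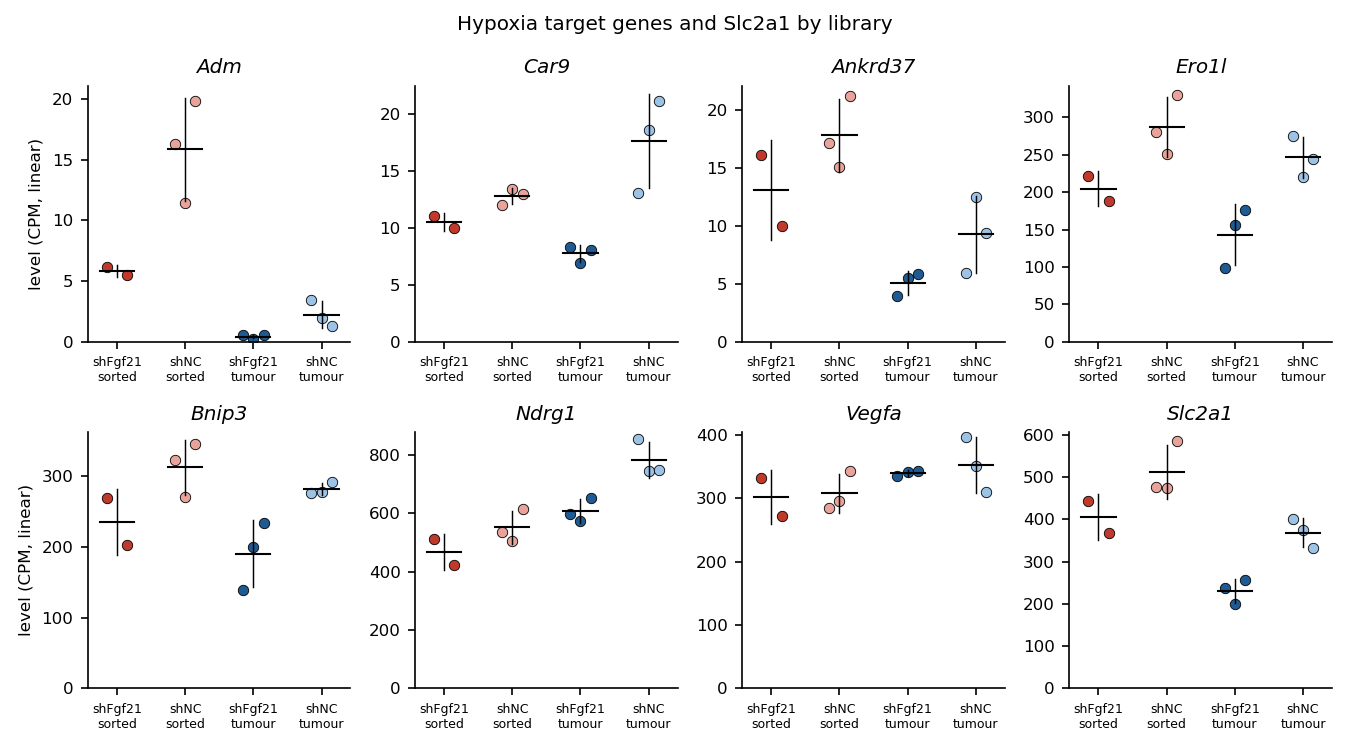
Levels of 7 HIF target genes and the glucose transporter Slc2a1 in each library, as linear CPM scaled over all 11 libraries, so that values differ slightly from those scaled within a comparison. Points are libraries, horizontal bars the mean and vertical bars 1 SD; Adm averaged 5.82 CPM in shFgf21 sorted and 15.8 CPM in shNC sorted libraries, and 0.430 CPM in shFgf21 tumour and 2.24 CPM in shNC tumour libraries, while Vegfa overlapped between shFgf21 and shNC in both kinds.

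The oxygen-sensing genes lay close to 0 in the sorted libraries. Hif1a was at 0.02 ± 0.11, Egln1 at -0.04 ± 0.10 and Egln3 at -0.15 ± 0.11 (log2 fold change ± SE), and all 3 overlapped between the groups. Pdk1, the kinase that inhibits pyruvate dehydrogenase, was at 0.00 ± 0.09. Of the paired regulators that set the level of fructose 2,6-bisphosphate, the strongest activator of phosphofructokinase, Pfkfb3 was at 94.9 and 62.1 CPM in shFgf21 and at 58.9, 55.2 and 189 CPM in shNC. The single high shNC library, replicate 3, set the width of that gene's error (-0.37 ± 0.51). Pfkfb4 was at 0.28 ± 0.23.

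Glucose entry and its first steps pointed in different directions in the sorted libraries, with none past the threshold. Slc2a3, the high-affinity glucose transporter of neurons and leukocytes, was at 18.4 and 24.0 CPM in shFgf21, against 38.8, 36.9 and 29.3 CPM in shNC (-0.72 ± 0.17, adjusted p = 0.247, edgeR). Slc2a1, the widespread glucose transporter, was at 417 and 342 CPM in shFgf21, against 451, 451 and 556 CPM in shNC (-0.36 ± 0.14). Both transporters were lower in each shFgf21 library than in each shNC library. Hk2, the inducible hexokinase that traps glucose as glucose 6-phosphate, was at 346 and 286 CPM in shFgf21, against 198, 195 and 231 CPM in shNC (0.61 ± 0.12, adjusted p = 0.178, edgeR). Gpi1, the isomerase of the next step, was at 725 and 606 CPM in shFgf21, against 853, 895 and 763 CPM in shNC (-0.33 ± 0.12, adjusted p = 0.383, edgeR). Hk2 was thus higher and Gpi1 lower in both shFgf21 libraries, each without overlap. Aldoc, the aldolase best known from brain, was at 33.2 and 38.8 CPM in shFgf21, against 22.5, 25.7 and 25.2 CPM in shNC (0.56 ± 0.13, adjusted p = 0.219, edgeR). Ldhb, the lactate dehydrogenase subunit that favours pyruvate formation, was at 10.8 and 8.03 CPM in shFgf21, against 4.53, 4.62 and 5.45 CPM in shNC (0.95 ± 0.20, adjusted p = 0.207, edgeR). These 2 genes were also without overlap, both higher in shFgf21.

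The high-level enzymes of the main chain had small log2 fold changes in the sorted libraries. Log2 fold changes were 0.01 ± 0.10 for Aldoa, the main aldolase, -0.18 ± 0.10 for Tpi1, the triose phosphate isomerase, -0.06 ± 0.11 for Pgk1, the first ATP-forming kinase, and 0.01 ± 0.10 for Pgam1, the phosphoglycerate mutase. Eno1, the main enolase, was at -0.23 ± 0.09, Pkm, pyruvate kinase, at -0.01 ± 0.11, and Ldha, the lactate-forming dehydrogenase subunit, at -0.18 ± 0.10. The remaining members, Hk1, Pfkp, Pfkl, Pfkm, Gapdh, Eno2, Slc16a1 and Slc16a3, lay between -0.06 and 0.25. The 17 enzymes of the chain from hexokinase to lactate dehydrogenase together held 0.911 ± 0.00495% of counts in shFgf21 (SD, n = 2) and 0.982 ± 0.0407% in shNC (SD, n = 3). With the counts on pseudogene copies of these enzymes added, which are described with Gapdh, the shares were 1.4% in shFgf21 and 1.53% in shNC.

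In the tumour libraries, too, no member passed the threshold between shFgf21 and shNC, but most log2 fold changes were below 0. Of 31 members tested, 8 were above and 23 below 0, with a median of -0.14 against -0.01 over all 14950 genes tested; Car12, Slc2a3, Aldoc and Ldhb were too low to test. The smallest adjusted p was 0.263 (edgeR), while 0.0334% of all genes passed (0.0268% higher and 0.00669% lower). At an unadjusted p under 0.05 there were 0 members above and 11 below 0, against 6.22% of all genes in either direction. The 3 shFgf21 libraries lay wholly below the 3 shNC libraries for 11 members and wholly above them for 0, against 6.19% and 5.4% of all genes. DESeq2 called 3 members lower, Car9, Adm and Slc2a1, against 0.488% of all genes, and limma voom called 0 members, against 0.14% of all genes. A single edgeR fit of all 4 groups called Car9 alone, lower with an adjusted p of 0.0372, against 0.0808% of all genes.

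All 7 tested genes of the list of HIF targets were below 0 in the tumour libraries, with a median log2 fold change of -0.79, and 6 of them did not overlap. Members listed elsewhere went both ways. Above 0 were 3 of 8 upper glycolysis genes, 0 of 6 lower ones, 1 of 3 oxygen-sensing genes (Egln3), and both Pfkfb3 and Pfkfb4. Among the 8 fibroblast and mesenchymal markers 6 were also below 0, 4 of them at an unadjusted p under 0.05 (edgeR). The 2 others were above 0, 1 of them at an unadjusted p under 0.05 (edgeR). Vim was higher in shFgf21 without overlap, at 3588, 4368 and 3666 CPM against 3259, 2817 and 3097 CPM in shNC, scaled over all 11 libraries. The summed level of the 8 markers was 14500 to 16200 CPM in shFgf21 and 16300 to 18100 CPM in shNC. The sum of 5 endothelial markers was 1.33 to 2.43 CPM in shFgf21 and 0.806 to 11.9 CPM in shNC, with shNC replicate 1 the highest. The part of these markers in the values that follow was not tested. Car9 was at 8.70, 7.23 and 8.48 CPM in shFgf21, against 13.9, 19.4 and 22.3 CPM in shNC (-1.19 ± 0.22, adjusted p = 0.263, edgeR). Adm was at 0.544, 0.261 and 0.549 CPM in shFgf21, from 9, 4 and 9 counts, against 3.66, 2.06 and 1.38 CPM in shNC, from 53, 41 and 26 counts (-2.35 ± 0.50, adjusted p = 0.396, edgeR). For both genes the highest shFgf21 library was below the lowest shNC library, and for Adm the shNC libraries themselves spread widely. Ero1l was at 102, 163 and 186 CPM in shFgf21, against 292, 229 and 258 CPM in shNC (-0.79 ± 0.22, adjusted p = 0.581, edgeR). Bnip3 was at 145, 209 and 246 CPM in shFgf21, against 294, 289 and 309 CPM in shNC (-0.57 ± 0.19, adjusted p = 0.670, edgeR). In both genes shFgf21 replicate 1 was the lowest of the 6 libraries. Ankrd37 was at 4.11, 5.73 and 6.22 CPM in shFgf21, against 6.28, 13.1 and 9.95 CPM in shNC (-0.87 ± 0.30, adjusted p = 0.691, edgeR), the groups nearly touching. Ndrg1 was at -0.37 ± 0.13 without overlap, and Vegfa at -0.06 ± 0.13 with overlap.

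Slc2a1 was at 248, 210 and 271 CPM in the shFgf21 tumour libraries, against 425, 390 and 351 CPM in the shNC tumour libraries. Its log2 fold change was -0.68 ± 0.15 (adjusted p = 0.396, edgeR), and all shFgf21 libraries were below all shNC libraries. Gpi1 was at 353, 366 and 374 CPM in shFgf21, against 444, 531 and 454 CPM in shNC (-0.39 ± 0.13, adjusted p = 0.670, edgeR), likewise without overlap. Further down the chain, Aldoa (-0.49 ± 0.17), Eno1 (-0.26 ± 0.12) and Pfkp, the platelet-type phosphofructokinase (-0.42 ± 0.16), were also lower without overlap. Pgk1 (-0.03 ± 0.12), Pgam1 (-0.05 ± 0.12), Pkm (-0.14 ± 0.13), Ldha (-0.04 ± 0.12) and Pdk1 (-0.04 ± 0.19) overlapped. Hk2 was at 294, 199 and 198 CPM in shFgf21 and at 330, 98.2 and 128 CPM in shNC, and Slc16a1, the lactate and pyruvate carrier MCT1, at 112, 94.2 and 87.4 CPM and at 133, 74.8 and 74.6 CPM in the same groups. For both, shNC replicate 1 was the highest library of all and the other two shNC libraries the lowest. Hif1a was at -0.02 ± 0.24, Egln1 at -0.31 ± 0.14 and Egln3 at 0.34 ± 0.19. The 17 chain enzymes held 0.772 ± 0.0472% of counts in shFgf21 and 0.882 ± 0.0382% in shNC (SD, n = 3 each), or 1.16% and 1.34% with copies added.

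**Figure D2:**
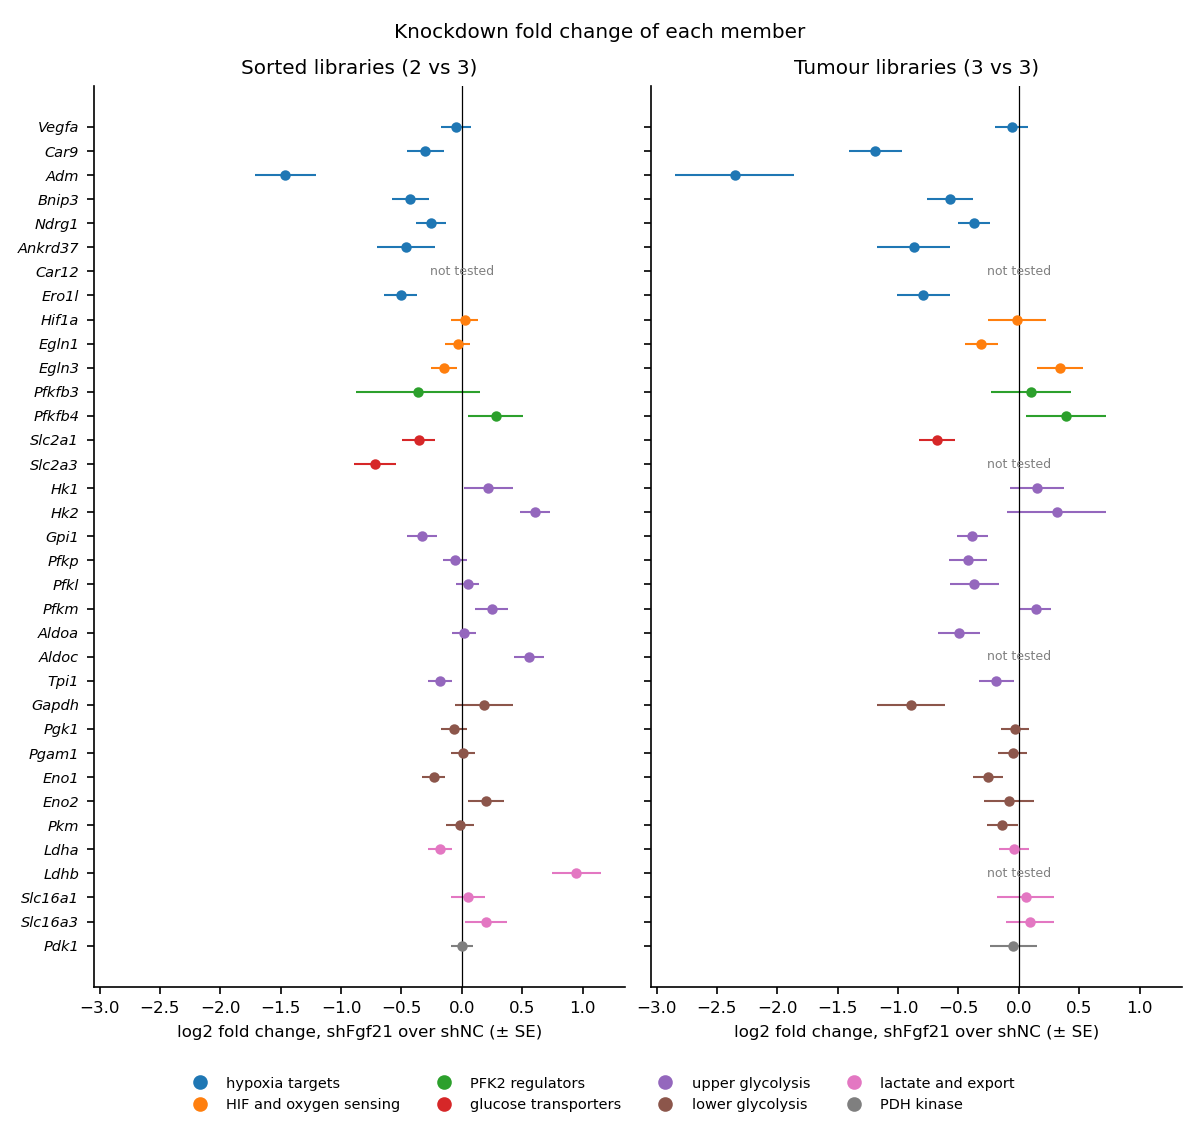
Log2 fold change of shFgf21 over shNC, with its standard error, for each member in sorted libraries (left, 2 against 3) and tumour libraries (right, 3 against 3), coloured by role. All 7 tested genes of the list of HIF targets lie left of 0 in both panels, with Adm at -1.46 and -2.35. Members listed elsewhere lie on both sides, with Hk2, Aldoc and Ldhb right of 0 in the sorted libraries and Hk2, Pfkfb4 and Egln3 right of 0 in the tumour libraries. No member passed the adjusted threshold.

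Gapdh, the triose phosphate dehydrogenase, was at 24.1, 20.6 and 30.8 CPM in the shFgf21 tumour libraries, against 27.3, 56.7 and 56.1 CPM in the shNC tumour libraries (-0.89 ± 0.28, adjusted p = 0.662, edgeR), with overlap through shNC replicate 1. These low levels for a very abundant transcript came with most of its reads listed elsewhere. The table holds 124 pseudogenes that share at least 100 stretches of 31 bases with Gapdh transcripts. Over the 11 libraries those rows held 413309 counts, against 8088 on the Gapdh row, which is 98.1% of both together. With the copies added, Gapdh stood between 1496 and 1775 CPM in shFgf21 and between 1992 and 2068 CPM in shNC tumour libraries, and its log2 fold change was -0.29 with an adjusted p of 0.797 (edgeR). Copies held 57.3% of the summed counts for Pgk1, 54.2% for Eno1 and 41.5% for Pgam1, and at most 10.2% for the 7 other members with copies; 24 members had none. The values of Gapdh, Pgk1, Eno1 and Pgam1 are for these reasons uncertain. In the sorted libraries the Gapdh log2 fold change was 0.19 on its own row and -0.08 with the copies added, neither past the threshold. With copies added, Pgk1 was at -0.09 in sorted and -0.10 in tumour libraries, Eno1 at -0.19 and -0.25, and Pgam1 at -0.01 and -0.04.

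**Figure D3:**
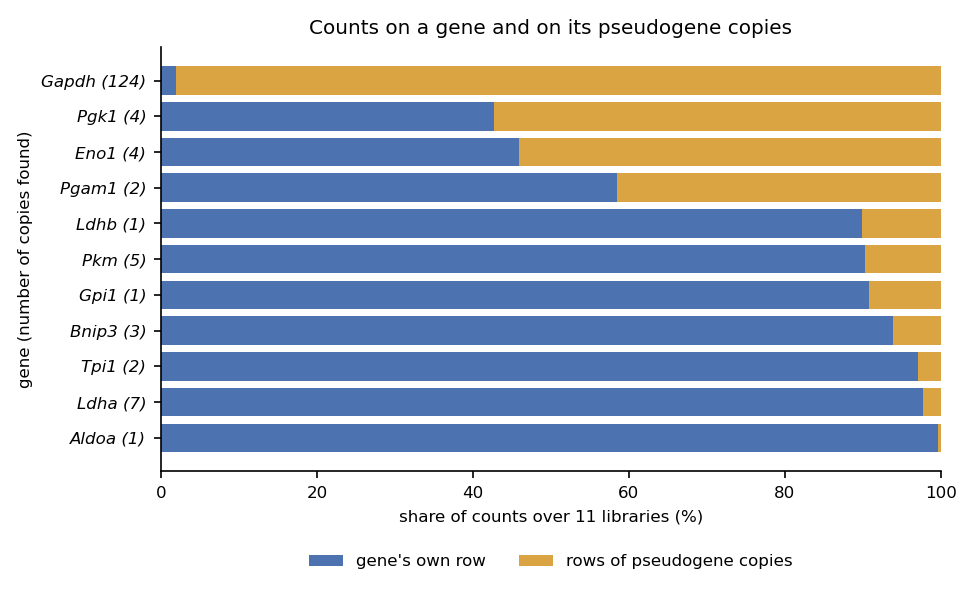
Share of counts, in percent over all 11 libraries, on each gene's own row (blue) and on the rows of its pseudogene copies (ochre), for the 11 members with at least 1 copy; the number of copies is in brackets. Nearly all Gapdh counts (98.1%) and more than those on the gene's own row for Pgk1 (57.3%) and Eno1 (54.2%) lie on copies.

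Whether the knockdown difference itself differed between the kinds of library was tested as an interaction, the sorted log2 fold change minus the tumour one. No member passed (0 of 34, adjusted p of 1.0 for each; 0.00577% of all 17327 genes passed), DESeq2 and limma voom called 0 members, against 0.19% and 0.0173% of all genes. At an unadjusted p under 0.05 there were 3 members, all above 0, against 4.77% of all genes in either direction. Of the 34 members 28 were above 0, with a median of 0.12 against 0.02 over all genes. Car9 was at 0.90 ± 0.28, with -0.30 in sorted and -1.19 in tumour libraries. Gapdh followed at 1.10 ± 0.43, and at 0.23 with its copies added, and Aldoa at 0.52 ± 0.22. Egln3 was at -0.48 ± 0.24, Pfkp at 0.37 ± 0.20, Egln1 at 0.29 ± 0.17, Pfkl, the liver-type phosphofructokinase, at 0.43 ± 0.25 and Slc2a1 at 0.33 ± 0.20. A difference between sorted and tumour libraries in the response of these genes was therefore not shown by a test that, on simulated data, recovered 0% of differences of 1.5-fold, 15.6% of 2-fold and 85.1% of 4-fold.

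Wider lists of the same pathway gave the same counts of 0 past the threshold in both knockdown comparisons (edgeR). Of 35 other hypoxia targets, 34 were tested in sorted libraries, with 14 above and 20 below 0, and 33 in tumour libraries, with 11 above and 22 below. At an unadjusted p under 0.05 there were 4 of them above and 6 below 0 in sorted libraries, and 0 above and 5 below in tumour libraries, which is 29.4% and 15.2% of those tested against 11.2% and 6.22% of all genes. Lox, the collagen cross-linking enzyme, had the smallest p in both, at 16.2 ± 2.35 CPM in shFgf21 (SD, n = 2) and 26.1 ± 3.81 CPM in shNC sorted libraries (SD, n = 3; -0.69 ± 0.17, adjusted p = 0.256, edgeR). In the tumour libraries Lox was at 6.77, 5.73 and 3.97 CPM in shFgf21, against 84.8, 18.4 and 19.4 CPM in shNC (-2.89 ± 0.60, adjusted p = 0.396, edgeR), with shNC replicate 1 far above all others. Next in sorted libraries came the nuclear receptor Rora (0.73 ± 0.21), the cyclin Ccng2 (-0.32 ± 0.10) and the lysyl hydroxylase Plod1 (0.37 ± 0.12), and in tumour libraries Bnip3l, a relative of Bnip3 (-0.41 ± 0.15), glycogen synthase Gys1 (-0.36 ± 0.14) and the secreted glycoprotein Stc2 (-0.52 ± 0.21). Among 29 genes of glycolytic branches, 17 of 22 tested were above 0 in sorted and 8 of 19 in tumour libraries, led by Hk3 (0.40 ± 0.17) and the transketolase Tkt (-0.37 ± 0.13). Of 12 genes of pyruvate entry, 6 of 11 tested were above 0 in sorted and 7 of 11 in tumour libraries, and of 8 further HIF regulators 6 of 7 and 3 of 7. Over these 3 lists together, the counts at an unadjusted p under 0.05 were 3 above and 0 below 0 in sorted libraries, and 0 above and 2 below in tumour libraries.

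Set against each other, the shNC sorted and shNC tumour libraries differed in 16 of the 34 members tested, 14 higher and 2 lower in sorted libraries at an adjusted p under 0.05 (edgeR), against 31% of all 16104 genes, 19.1% higher and 11.9% lower. The groups did not overlap for 18 members higher and 3 lower in sorted libraries, against 25.6% and 21.6% of all genes. The median log2 fold change was 0.32 over the members and -0.02 over all genes. With 18 of 34 members not past the threshold, these included Vegfa (-0.19 ± 0.13), Bnip3 (0.15 ± 0.12), Ero1l (0.22 ± 0.14), Hif1a (0.34 ± 0.23), Pkm (0.11 ± 0.12), Ldha (0.15 ± 0.11) and Pdk1 (0.00 ± 0.17). Leukocyte and macrophage markers moved with the same contrast. Ptprc was at 262 to 304 CPM in shNC sorted and 0.241 to 0.975 CPM in shNC tumour libraries. The macrophage marker sum was 11100 to 13500 CPM and 33.3 to 47.7 CPM in the same groups. The part of these markers in the differences was not tested.

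Ldhb, Aldoc and Slc2a3 showed the largest differences of all members tested between the shNC groups. Ldhb had 232 counts over the shNC sorted libraries and 1 count over the shNC tumour libraries, a ratio of CPM of 261 (95% exact interval 46.3 to 10300, counting error only) on its own row. In the shFgf21 libraries it had 288 and 0 counts, at least 149-fold higher in sorted libraries on its own row, against a floor of 3 counts over the tumour group. With the counts of its 1 pseudogene copy added, the ratios were 79.1 (35.9 to 217) in shFgf21 and 49.0 (22.2 to 135) in shNC, with 6 counts in each tumour group, of which the copy held 6 in shFgf21 and 5 in shNC. Aldoc gave ratios of 107 (65.8 to 188) in shFgf21 and 163 (82.6 to 379) in shNC, and Slc2a3 of 203 (86.4 to 626) and 103 (65.1 to 175). All 3 genes were higher in every sorted library than in every tumour library, with adjusted p of 3.9e-05 for Ldhb, 6.8e-06 for Aldoc and 3.9e-05 for Slc2a3 between the shNC groups (edgeR).

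Regulators and carriers followed at moderate size. With CPM scaled within this comparison, Pfkfb3 was at 63.0, 58.7 and 202 CPM in shNC sorted libraries, against 9.74, 5.16 and 4.73 CPM in shNC tumour libraries (4.06 ± 0.57, adjusted p = 0.00105, edgeR; 3.23 without shNC sorted replicate 3). Pfkfb4 was at 17.1, 19.2 and 28.4 CPM against 7.77, 3.60 and 4.37 CPM (2.05 ± 0.33, adjusted p = 0.00221, edgeR), and Slc16a3, the lactate exporter MCT4, at 163, 215 and 238 CPM against 81.0, 97.1 and 61.4 CPM (1.36 ± 0.20, adjusted p = 0.00146, edgeR). In each of the 3 the lowest sorted library was above the highest tumour library. Adm was at 16.5, 11.5 and 20.1 CPM in shNC sorted libraries, against 3.49, 2.0 and 1.32 CPM in shNC tumour libraries (2.84 ± 0.38, adjusted p = 8.0e-04, edgeR). Pfkp was at 268, 269 and 256 CPM against 132, 104 and 106 CPM (1.21 ± 0.13, adjusted p = 2.0e-04, edgeR), and Gpi1 at 912, 953 and 815 CPM against 423, 514 and 434 CPM (0.97 ± 0.13, adjusted p = 7.8e-04, edgeR). Neither gene's sorted libraries came near its tumour libraries. Aldoa was at 1399, 1551 and 1506 CPM against 804, 1110 and 804 CPM (0.71 ± 0.16, adjusted p = 0.00973, edgeR), and Ankrd37 at 17.4, 15.3 and 21.5 CPM against 5.99, 12.7 and 9.51 CPM (0.94 ± 0.28, adjusted p = 0.0355, edgeR). Slc2a1 (0.48 ± 0.13), Tpi1 (0.43 ± 0.11) and Pgam1 (0.35 ± 0.10) were also higher in sorted libraries. Lower there were Ndrg1, at 542, 512 and 621 CPM in shNC sorted libraries against 865, 751 and 755 CPM in shNC tumour libraries (-0.50 ± 0.12, adjusted p = 0.0175, edgeR), and Pfkm, the muscle-type phosphofructokinase (-0.48 ± 0.12, adjusted p = 0.0188, edgeR). Of these 16 calls, 10 were never lost in the 13 alternatives run for this comparison. Ldhb, among these 10, was too low to be tested at a mean of at least 5 CPM. The remaining 6 were lost when 1 library was left out (edgeR). Ankrd37, Slc2a1 and Pgam1 lost theirs without shNC sorted replicate 1, 2 or 3 or shNC tumour replicate 6, with adjusted p up to 0.130, 0.106 and 0.123, and Pgam1 also with no filter on low counts. Tpi1 lost its call without shNC sorted replicate 2 or 3 or shNC tumour replicate 6 (adjusted p up to 0.0804), Pfkm without shNC sorted replicate 1 or 3 or shNC tumour replicate 6 (up to 0.0786), and Ndrg1 without shNC sorted replicate 1 or 2 (up to 0.0828). Gapdh joined the calls with its copies added (0.60, adjusted p = 0.00509, edgeR).

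**Figure D4:**
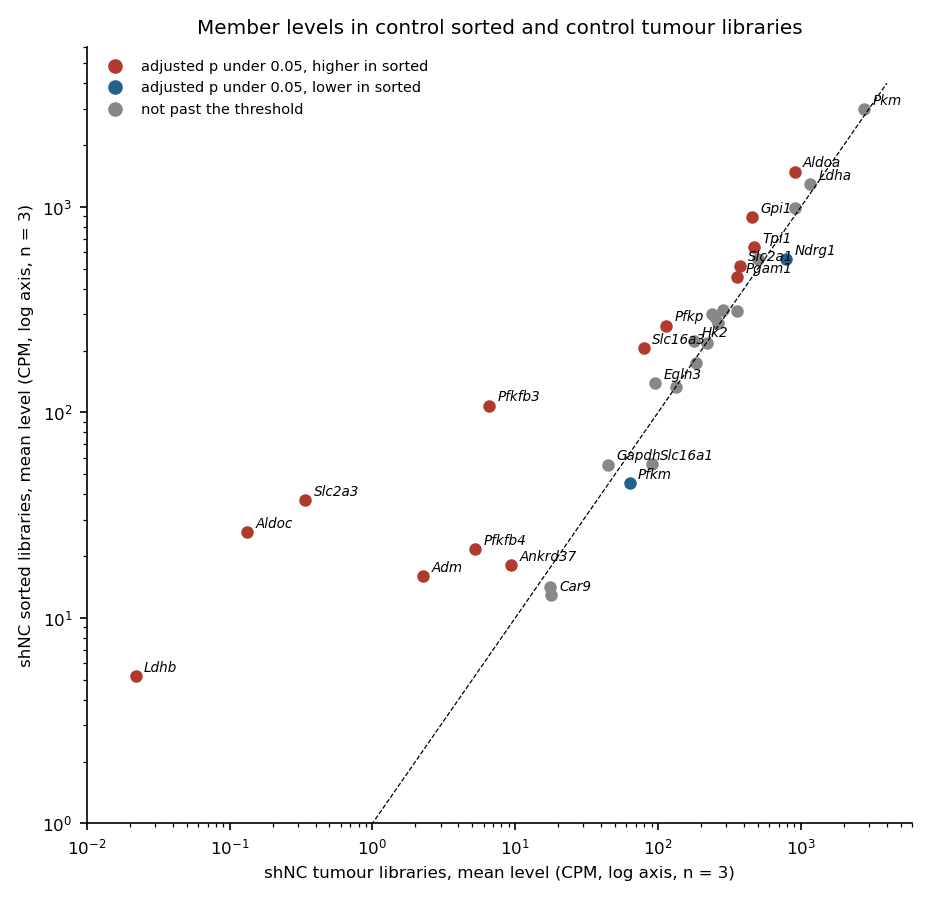
Mean level of each tested member in shNC sorted libraries (vertical) and shNC tumour libraries (horizontal), both in CPM on log axes with n = 3 each; the dashed line marks equal levels. Red points, 14 in all, were higher in sorted libraries and blue points, 2 in all, lower; Ldhb, Aldoc and Slc2a3 lie farthest above the line, with 0.0219, 0.133 and 0.338 CPM in the tumour libraries.

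Beyond the members, 7 of the 34 other hypoxia targets tested were higher and 4 lower in shNC sorted than in shNC tumour libraries (32.4%, near the 31% of all genes), among them Rora (5.23 ± 0.48), the transcription factor Nfil3 (1.21 ± 0.13) and the lysyl hydroxylase Plod2 (-0.92 ± 0.11). Of the 21 glycolytic branch genes tested 5 were higher and 2 lower (33.3%, also near that share). The hexokinase of myeloid cells, Hk3, was at 222 ± 37.0 CPM in shNC sorted and 0.203 ± 0.224 CPM in shNC tumour libraries (SD, n = 3 each). Of the 11 pyruvate entry genes tested 1 was higher, the mitochondrial pyruvate carrier subunit Mpc2 (0.61 ± 0.14), and 2 lower, the pyruvate dehydrogenase subunits Dlat (-0.44 ± 0.10) and Pdha1 (-0.36 ± 0.10). None of the 7 further HIF regulators tested passed (0 at an unadjusted p under 0.05, edgeR).

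Per length, on the deposited FPKM scale and on each gene's own row, Pkm had the highest level of all members in every group, at 367 ± 11.4 FPKM in shFgf21 sorted and 384 ± 28.3 FPKM in shNC sorted libraries, and at 353 ± 28.9 FPKM in shFgf21 tumour and 394 ± 3.79 FPKM in shNC tumour libraries (SD, n = 2, 3, 3 and 3). Aldoa came next in sorted libraries on own rows, at 235 ± 1.29 FPKM in shFgf21 and 241 ± 10.4 FPKM in shNC, and stood below Ldha in tumour libraries, at 114 ± 15.7 FPKM in shFgf21 and 163 ± 35.8 FPKM in shNC. Ldha was at 155 ± 2.86 and 182 ± 9.43 FPKM in shFgf21 and shNC sorted libraries, and at 173 ± 8.74 and 182 ± 11.8 FPKM in shFgf21 and shNC tumour libraries. On own rows Pgk1 was at 171 ± 7.49 FPKM in shNC tumour libraries, where Ldha and Aldoa did not differ beyond their spread. With copies added, the order below Pkm was another: Pgk1 came next in every group, at 381 ± 9.04 and 420 ± 42.7 FPKM in shFgf21 and shNC sorted libraries, and at 367 ± 17.9 and 401 ± 13.4 FPKM in shFgf21 and shNC tumour libraries. Gapdh then stood at 312 and 342 FPKM in shFgf21 and shNC sorted libraries, and Pgam1 at 255 and 266 FPKM in the same groups, all above Aldoa at 236 and 242 FPKM. On that scale Pkm was at 406 ± 11.3 and 424 ± 30.5 FPKM in shFgf21 and shNC sorted libraries, within the spread of Pgk1 in shNC. The order with copies rests on the deposited lengths, 8626 bases for Gapdh, 3051 for Pgk1 and 7377 for Pkm. Merged exons were 4133, 2244 and 5001 bases long for the same genes. On merged lengths Gapdh would lead in the sorted libraries, so this order depends on the length used. At the low end Car12, a second membrane carbonic anhydrase, was below 0.05 FPKM in all 4 groups.

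Composition within families was compared per length as shares of summed FPKM on own rows, with no test. Hk2 gave 75.0 ± 7.32% and 70.0 ± 2.55% of Hk1 plus Hk2 in shFgf21 and shNC sorted libraries, and 65.7 ± 3.75% and 60.3 ± 12.5% in shFgf21 and shNC tumour libraries. The hexokinase shares overlapped between the shFgf21 and shNC groups of each kind. Of the 3 phosphofructokinases, Pfkl held more than Pfkp and Pfkm together in every group, from 55.8 ± 2.99% in shFgf21 tumour to 61.3 ± 4.94% in shNC tumour libraries. Pfkp held 25.2 ± 2.89% in shFgf21 sorted and 27.2 ± 1.31% in shNC sorted libraries, but 11.6 ± 0.229% in shFgf21 tumour and 13.5 ± 3.71% in shNC tumour libraries, and Pfkm made up the remainder. Slc16a3 held 67.0 ± 7.08% and 64.6 ± 6.62% of Slc16a1 plus Slc16a3 in shFgf21 and shNC sorted libraries, and 31.3 ± 1.54% and 31.7 ± 8.08% in shFgf21 and shNC tumour libraries. The leading lactate carrier was therefore Slc16a3 in the sorted and Slc16a1 in the tumour libraries on this scale. With merged exon lengths in place of the length behind FPKM, Slc16a3 reached 52.7% in 1 shNC tumour library, while its mean there was 43.1%.

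Pfkfb3 exceeded Pfkfb4 in sorted libraries, at a mean of 58.8% in shFgf21 (51.0 to 66.6%) and 65.9% in shNC (58.4 to 76.5%) of their sum, and not in tumour libraries, at 32.3% in shFgf21 (23.2 to 43.0%) and 36.4% in shNC (33.1 to 39.6%). Egln3 gave 47.7 ± 0.384% of Egln1 plus Egln3 in shFgf21 tumour libraries, against 36.3 ± 4.60% in shNC tumour libraries, without overlap (47.3 to 48.0% against 33.2 to 41.6%). In sorted libraries the same share was 44.2 ± 1.04% in shFgf21 and 46.2 ± 0.339% in shNC. It too was without overlap there, but lower in shFgf21 (43.5 to 44.9% against 45.9 to 46.6%). The minor partners stayed small everywhere: Ldhb held 2.40% and 1.11% of the lactate dehydrogenase pair in shFgf21 and shNC sorted libraries, Aldoc 2.62% and 1.82% of the aldolases, Slc2a3 2.79% and 3.56% of the glucose transporters and Eno2, the neuronal enolase, 1.17% and 0.870% of the enolases. In the tumour libraries Aldoc, Slc2a3 and Ldhb held at most 0.0513% of their pairs, and Eno2 1.30% in shFgf21 and 1.15% in shNC.

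**Figure D5:**
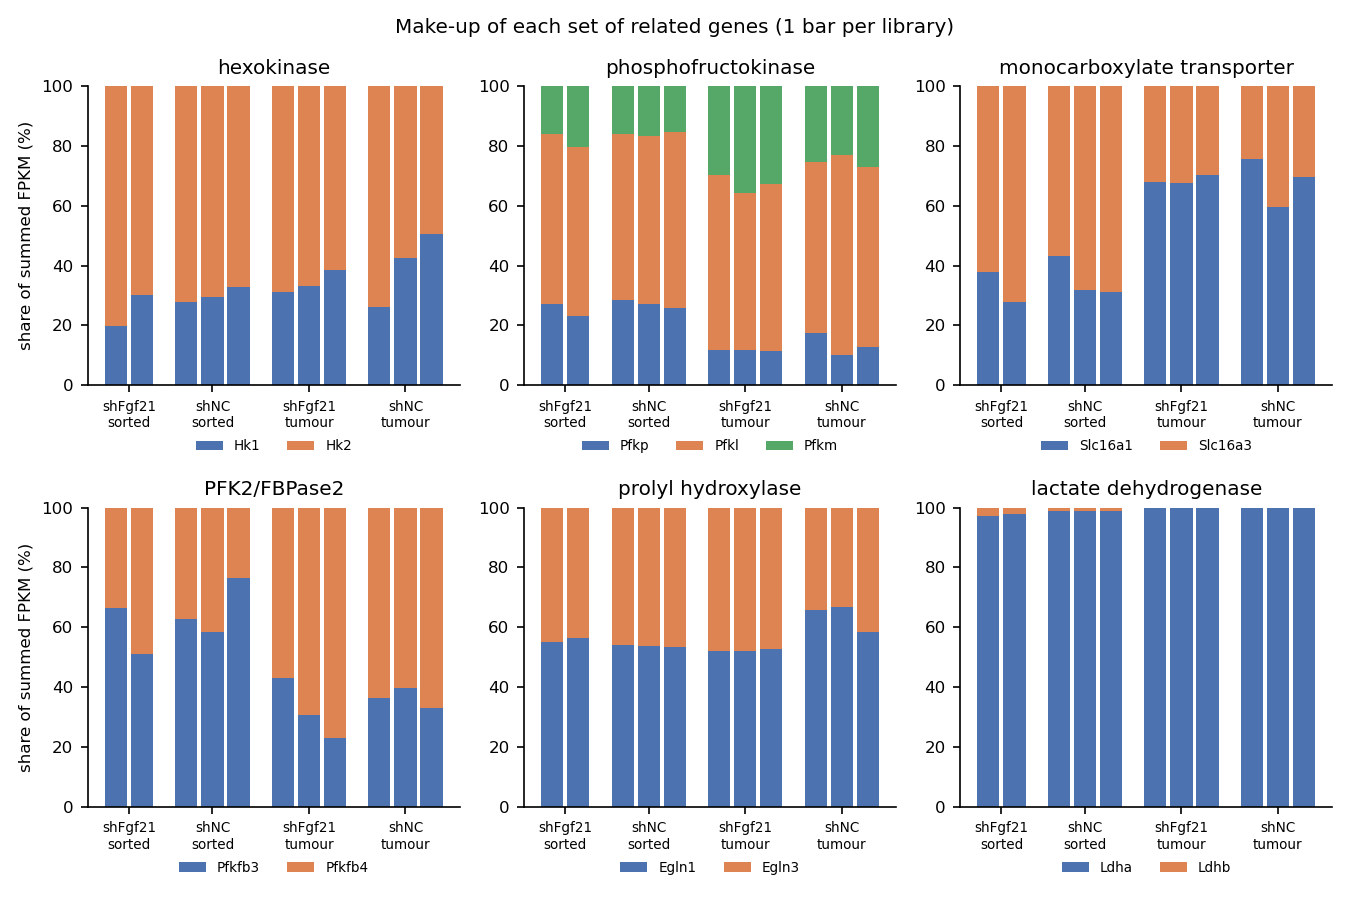
Composition of 6 families of related genes in each library, as the share in percent of the family's summed FPKM, with 1 bar per library and shFgf21 left of shNC within each kind. Slc16a3 (orange, upper right panel) fills 64.6 to 67.0% on average in the sorted groups and 31.3 to 31.7% in the tumour groups, and Pfkp (blue, upper middle panel) 25.2 to 27.2% against 11.6 to 13.5%.

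Some rows share bases with neighbours, and the use of strand in counting is not stated. Some genes that overlap a member hold more than 10% of its counts. Those below the member are the antisense Gm12454 at Car9 (420 against 2278 counts over all libraries), Gm4482 at Slc2a3, Pitrm1 at Pfkp and Iffo1 at Gapdh. Those above it are Ufsp2 at Ankrd37 (3731 against 1980), Csnk1d at Slc16a3 (30560 against 24683) and Senp1 at Pfkm (10970 against 10593). Reads of these neighbours and of the members cannot be told apart where they overlap.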

How the data were processed

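Raw counts and FPKM values, both deposited by the authors, cover 11 libraries on mm10 (genome build per the submitters' processing notes). For the aligner, counting program, annotation release and strandedness, the sources used here give nothing. The deposited FPKM equal the count over a fixed length and the library total (9655 genes with at least 100 counts, largest difference 0.000844%). For 32 of 35 members that length equals, within 1 base, the sum of distinct exon records in GENCODE M21, so bases in overlapping records count more than once; it is 1.46 times the merged exon length at the median and up to 2.74 times. FPKM were used only for shares and levels between genes.

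The deposited counts were tested with edgeR 4.0.16 (R 4.3.3): filterByExpr, TMM scaling, quasi-likelihood F-test, Benjamini-Hochberg adjustment over all genes tested, threshold 0.05, two-sided. The standard error is the log2 fold change over the square root of F. CPM given with a comparison carry its own TMM factors. Groups came from sample titles, with no covariates; the interaction used all 4 groups. DESeq2 1.42.0, limma 3.58.1 (voom with sample quality weights), median-ratio scaling, other filters, each library left out, and 3 alternatives added after the data were seen (shNC sorted replicate 3, the one whose title prefix is NC as in the tumour controls, as sole control; copies added; merged exon lengths) were alternatives. Simulated data held 200 changed genes, drawn only from genes at a mean of at least 10 CPM. With these the sorted comparison (16123 genes) recovered 30.9%, 71.7% and 100% of changes of 1.5, 2 and 4-fold, with 9.93% false calls. The tumour comparison (14685 genes) recovered 7.04%, 58.2% and 98.4%, with 11% false calls. The interaction (16963 genes) recovered 0%, 15.6% and 85.1%, with 2.9% false calls.

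The members and lists were chosen with earlier results of these data known. Values in every library are given for the members past the threshold, filled up to 8 by smallest unadjusted p per knockdown comparison, and for up to 12 with the largest fold change between kinds of library; Slc2a1, Pfkfb3, Hk2 and Slc16a1 were added in a comparison after their values were seen. From wider lists up to 4 genes with the smallest p at a mean of at least 10 CPM are named. Intervals and floors of 3 counts cover counting error only. Libraries of a group differed by more than sampling noise in every pair, and each was counted as 1 sample. That difference does not show that they came from separate animals.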

Additional observations from a re-analysis of the deposited data

How the results depend on the processing

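Of 506 values of named members under the alternatives, 489 kept their direction and side of the threshold, 11 passed it and 6 lost it; none changed direction. Calls over all genes varied more. In sorted libraries 13 genes were called, against 1 without a filter, 246 with DESeq2 (153 higher, 93 lower), 1 in a fit of all 4 groups, 92 with shNC replicate 3 as the sole control (1 library, assumed to vary like the 2 shFgf21 libraries), and 0 to 34 with 1 library left out. Members called there were 0, against 5 with DESeq2 and 1 with that control alone. In tumour libraries 5 genes were called, against 1 at a mean of at least 5 CPM, 115 with DESeq2, 21 with voom, 26 in a fit of all 4 groups and 0 to 8 with 1 library left out. Members called were 0, against 3 with DESeq2 and 1 in the fit of all 4 groups; their median was -0.219 to -0.124 with 1 library left out. For the interaction 1 gene was called, against 4 without a filter, 0 at a mean of at least 5 CPM, 33 with DESeq2, 3 with voom and 0 to 4 with 1 library left out, with a members' median of 0.096 to 0.237. Between shNC sorted and shNC tumour libraries the members' median was 0.224 to 0.338 and 11 to 19 members were called with 1 library left out. With copies added, the Ldhb log2 fold change there was 5.68 against 7.66, and the Slc2a3 value was 8.73 with voom and 6.19 without shNC tumour replicate 6, against 6.80. Except where lost libraries or genes are part of the setting, the cause was not tested.

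Title numbers 1 and 2 occur in both tumour groups, and the labels do not say that they mark anything shared. Same-numbered libraries correlated at 0.12 for number 1 and -0.227 for number 2 (9697 genes, deviations from group means). Differently numbered pairs ran from -0.303 to 0.205. Deviations from a group mean cancel within the group, so these values cannot show whether a number marks a shared source. With a replicate block, which rests on these 2 pairs, 131 genes and 1 member, Adm (-2.83, adjusted p = 0.0126, edgeR), were called. No paired analysis was possible for the sorted groups because each title joins 2 or 3 numbers, and those that recur in the other group tie no library to a single partner. Some numbers in sorted titles also recur in tumour titles of the same hairpin, such as 1 and 2 for shNC sorted replicate 3. The labels do not say whether these mark a shared source. The interaction and the comparison of shNC sorted with shNC tumour libraries counted all libraries as independent.

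Leaving out 1 shFgf21 sorted library leaves that group with 1, assumed to vary like the shNC libraries. Family shares gave 152 alternative values, each share under 2 settings, and 38 of these values moved by more than 1 SD. All 38 were with merged exon lengths. The other setting, rescaling FPKM to a common library total, cannot change a share. Depth limits Adm in tumour libraries and leaves Ldhb, Aldoc, Slc2a3 and Car12 there near the floor of 3 counts.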
